A study of Mus musculus with 48 samples.

Results

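The genes described are those of the MHC class II pathway together with the gene of its transactivator. They were taken by symbol (Ciita, H2-Aa, H2-Ab1, H2-Eb1, Cd74, H2-DMa, H2-DMb1, H2-DMb2, H2-Oa and H2-Ob), with no threshold on a measured value. All 10 were found among the 20007 genes of a table of unique molecular identifier (UMI) counts. The libraries came from spleens of 16 mice given sheep red blood cells (SRBC) intraperitoneally, an antigen that starts germinal center (GC) reactions. Of these mice, 8 carried a c-Rel transgene (c-RelTG, called transgenic here; mice 5 to 8 and 13 to 16) and 8 did not (controls; mice 1 to 4 and 9 to 12). NF-kB, a family of transcription factors, counts c-Rel among its subunits. Both genotypes carried 1 further allele, which is not reported here, so no group was free of it. No mouse was left without antigen, and neither age nor sex is given in the labels. From each mouse 3 populations of 1000 cells were sorted: naive B cells (IgDhi IgMlo), GC B cells (B220+ IgD- CD38lo CD95hi GL7+) and plasma cells (B220lo CD138+), which gave 6 groups of 8 libraries.

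MHC class II molecules carry peptides from the endosomal pathway to the cell surface, where CD4+ T cells read them. Ciita is the transactivator on which expression of the class II genes depends; it does not bind DNA itself but joins a complex of RFX, CREB and NF-Y proteins assembled on the conserved X and Y boxes of class II promoters. H2-Aa and H2-Ab1 encode the alpha and beta chain of I-A, and H2-Eb1 the beta chain of I-E. Cd74 is the invariant chain, which fills the groove of new class II dimers and guides them to endosomes; it also serves as a surface receptor. H2-DM, made of H2-DMa with H2-DMb1 or H2-DMb2, exchanges the remnant of the invariant chain for peptide, and H2-DO (H2-Oa with H2-Ob) inhibits H2-DM. B cells use the pathway to present antigen to helper T cells, in the GC above all, and silence Ciita as they become plasma cells.

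In GRCm38 coordinates 8 of the genes lie within one stretch of chromosome 17, from H2-Oa (34092340 to 34095234) to H2-Eb1 (34305867 to 34316674). Between them are H2-DMa (34119541 to 34139101), H2-DMb2 (34143307 to 34151555), H2-DMb1 (34153072 to 34160230), H2-Ob (34238903 to 34254414), H2-Ab1 (34257689 to 34269419) and H2-Aa (34282744 to 34287823, minus strand). Ciita lies on chromosome 16 (10480059 to 10528418).

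Because class II promoters carry conserved X and Y boxes, the stretch matched to them is printed for 4 members, where it lies outside annotated exons. The sequences are RefSeq's (GRCm38.p6), each on its gene's strand. Capitals mark CNNGNAAC, the letters searched for the X box, and ATTGG, the letters searched for the Y box (the CCAAT motif read on the other strand). In H2-DMb2 only ATTGG was matched. Its window is inside the longer gene model of GENCODE but in no exon.
H2-Aa chr17:34287861-34287913: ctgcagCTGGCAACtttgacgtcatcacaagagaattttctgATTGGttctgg
H2-Eb1 chr17:34305767-34305818: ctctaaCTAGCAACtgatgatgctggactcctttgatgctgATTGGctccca
H2-Ob chr17:34238809-34238858: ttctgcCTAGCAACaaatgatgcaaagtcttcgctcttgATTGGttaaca
H2-DMb2 chr17:34145123-34145169: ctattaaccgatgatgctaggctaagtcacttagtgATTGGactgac
The search covered the 250 bases before each annotated start on both strands, with CNNGNAAC followed by ATTGG after 15 to 30 bases. RefSeq promoters were matched for 7 members (8 starts), and 5 of these members held the pair (H2-Aa, H2-Eb1, H2-Ob, H2-Oa and H2-DMb1), with 25 to 28 bases between its parts. The pair was in 0.527% of 32851 promoters, CNNGNAAC alone in 33.3% and ATTGG alone in 33.8%. The letters were chosen after the members' sequences had been read, so the share is a description. H2-DMa held no such pair at either of its starts.

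Library totals were 97993 to 159857 UMIs in naive B cells, 401207 to 695137 in GC B cells and 481229 to 794273 in plasma cells. The sorted populations carried their markers. All 7 naive markers were lower in GC B cells and plasma cells than in naive B cells, all 7 GC markers were higher in GC B cells, and all 7 plasma cell markers were higher in plasma cells, in both genotypes. Rel, the gene of c-Rel, averaged 30.3 ± 16.3 CPM in control and 26.3 ± 16.98 in transgenic naive B cells, 12.03 ± 4.59 and 25.8 ± 6.6 in GC B cells, and 1 against 18 UMIs in all over the plasma cell libraries. Whether the transgene keeps the 3′ end that this assay counts is not given in the labels.

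Levels are given as UMI counts divided by the library total and brought to CPM, with totals corrected by TMM over all 48 libraries so that the 6 groups share a scale. UMIs in this assay mark the 3′ end of a transcript, 1 per molecule, so levels of different genes were compared without division by length. In control naive B cells the order of mean CPM was Cd74 (12416 ± 930, SD, n = 8), H2-Ab1 (10035 ± 542), H2-Aa (7734 ± 709), H2-Eb1 (4610 ± 372), H2-DMb2 (1891 ± 237), H2-DMa (1092 ± 111), H2-Ob (894 ± 78.0), H2-Oa (665 ± 79.3), H2-DMb1 (581 ± 92.2) and Ciita (225 ± 49.3). Neighbours in this order overlapped over the mice only for Cd74 with H2-Ab1, for H2-DMa with H2-Ob and for H2-Oa with H2-DMb1. The chains and the invariant chain thus stood far above the transactivator.

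The order changed little in GC B cells and more in plasma cells. In control GC B cells mean CPM ran from Cd74 (6363 ± 512), H2-Ab1 (5090 ± 253), H2-Aa (2880 ± 154) and H2-Eb1 (2228 ± 175) through H2-DMb2 (756 ± 51.9), H2-DMa (637 ± 52.4), H2-Ob (351 ± 33.1) and H2-DMb1 (246 ± 27.4) to H2-Oa (201 ± 33.8) and Ciita (113 ± 14.4). H2-DMb2 overlapped with H2-DMa, H2-Ob with H2-DMb1 and H2-DMb1 with H2-Oa. In control plasma cells it ran from Cd74 (6220 ± 726), H2-Ab1 (1829 ± 267), H2-Aa (501 ± 73.3) and H2-Eb1 (475 ± 32.5) through H2-DMa (140 ± 24.5), H2-Ob (90.2 ± 23.3), H2-DMb2 (58.1 ± 23.4) and H2-DMb1 (38.4 ± 12.8) to H2-Oa (10.2 ± 6.5) and Ciita (3.74 ± 3.66). There H2-Aa overlapped with H2-Eb1, and each gene from H2-DMa down overlapped with the next. Together the 10 genes made up 5.40% ± 0.31 of all UMIs in control naive B cells, 2.66% ± 0.17 in GC B cells and 0.492% ± 0.039 in plasma cells. In transgenic mice these shares were 5.14% ± 0.19, 2.12% ± 0.18 and 0.409% ± 0.036.

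**Figure D1:**
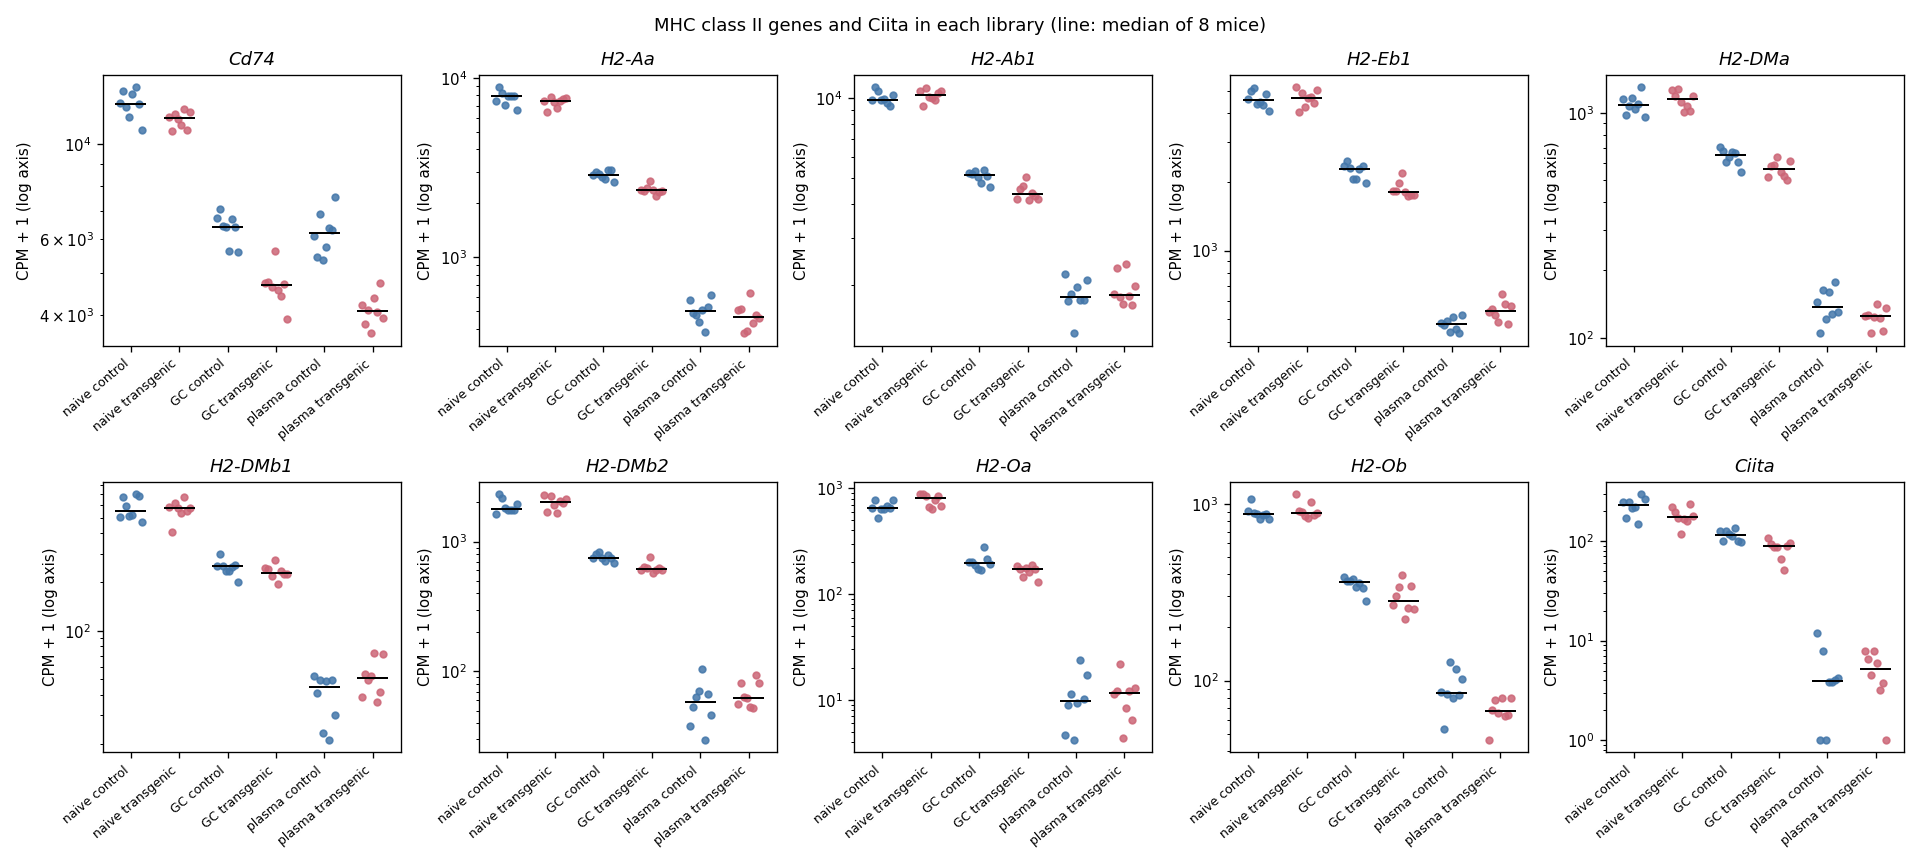
CPM + 1 of each gene (vertical log axis, its range set per gene) in the 48 libraries, by population and genotype (control blue, transgenic red); each point is 1 mouse and the line is the median of 8. Every gene steps down from naive to GC B cells, and all but Cd74 of control mice step down again to plasma cells, where Ciita is at 0 in 2 control libraries and 1 transgenic library.

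The populations were compared first in control mice, with edgeR's quasi-likelihood test and Benjamini-Hochberg adjustment over all genes tested. A gene is called changed at an adjusted p under 0.05. In GC B cells all 10 genes were lower in CPM than in naive B cells, with a median log2 fold change of -1.15, against 0.00155 over all 6503 genes tested. Of all genes tested 51.3% were called and 24.7% were called lower. All 10 were lower in each of the 8 mice. H2-Oa fell by 1.73 on the log2 scale (SE 0.10, adjusted p = 1.28e-33) and H2-Aa by 1.43 (SE 0.07, adjusted p = 2.14e-40). At the other end H2-DMa fell by 0.79 (SE 0.07, adjusted p = 7.61e-18). Ciita fell by 0.997 (SE 0.13, adjusted p = 4.01e-11), from 146, 231 and 296 CPM (lowest, median and highest mouse) in naive B cells to 96.5, 114 and 133 CPM in GC B cells. The ranges of Ciita in the 2 populations did not overlap.

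The direction of this difference depends on what a level is set against. GC B cell libraries held about 4 times as many UMIs from the same number of cells (mean 453596 against 108690 in control mice). Counted per library of 1000 cells, all 10 genes were higher in GC B cells than in naive B cells in every control mouse, and 9 of 10 in every transgenic mouse. The share of all genes that did the same was not taken, here or for the counts per library in plasma cells below. These counts therefore do not set the members apart from other genes. UMIs of H2-Aa averaged 1129 ± 111 in naive and 1830 ± 170 in GC B cells of control mice, and those of Ciita 32.8 ± 6.9 and 71.6 ± 8.1. The members therefore made up a smaller part of a larger number of UMIs. What set the larger totals was not tested. In libraries made from many cells, fewer cells of a type and less RNA per cell cannot be told apart.

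**Figure D2:**
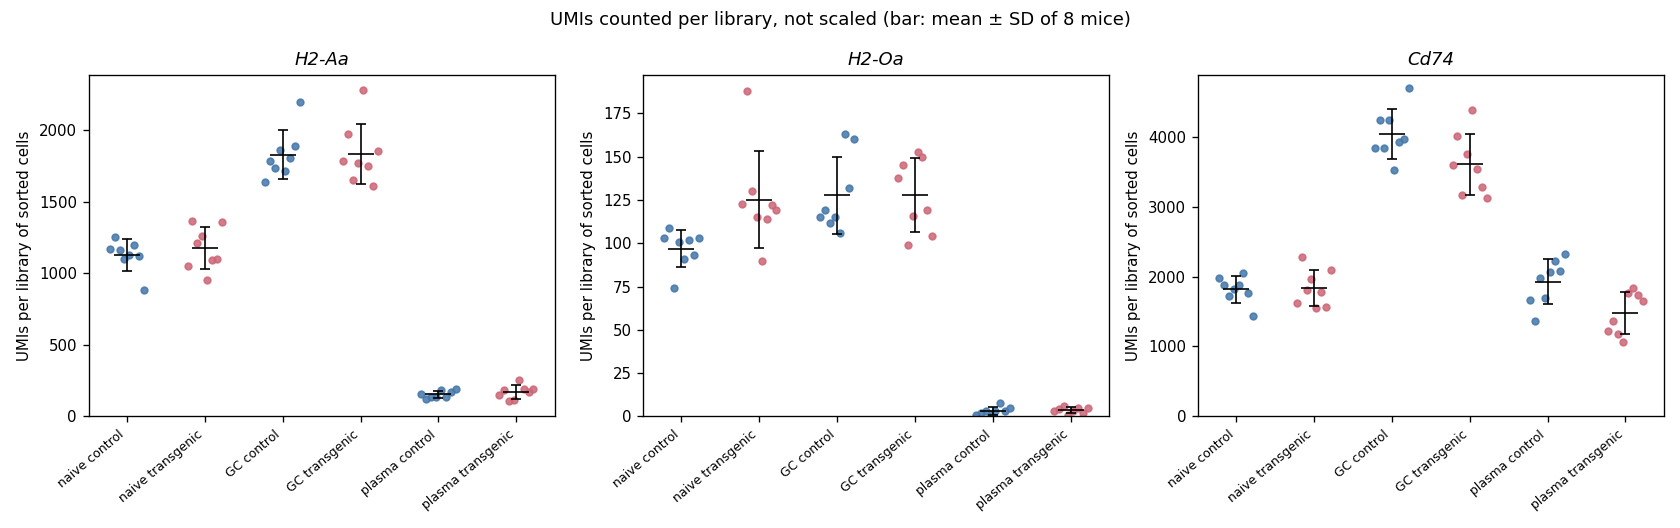
UMIs of H2-Aa, H2-Oa and Cd74 as counted in each library of 1000 sorted cells (vertical axis, from 0), by population and genotype; points are mice and bars the mean ± SD of 8. On this scale GC B cell libraries hold more UMIs of H2-Aa and Cd74 than naive libraries, whereas the CPM of both is lower, and in plasma cells H2-Oa is down to between 1 and 8 UMIs.

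Plasma cells held far less of most class II transcripts on both scales. Counted per library, 9 of the 10 genes were lower than in naive B cells in every mouse of both genotypes. The exception was Cd74, at 1924 ± 324 UMIs in plasma cells and 1815 ± 187 in naive B cells of control mice. In transgenic mice it gave 1477 ± 305 and 1833 ± 260 UMIs, and the ranges overlapped in both genotypes. All 10 genes were lower in CPM than in naive B cells of control mice, in each of the 8 mice (52.5% of 6503 genes called, 25.4% lower; member median -3.60, all genes 0.00831). The depth of the fall differed between genes. H2-Oa fell by 5.93 on the log2 scale (SE 0.17, adjusted p = 2.99e-61) and retained 1.54% of its naive CPM, H2-DMb2 retained 3.07% and Ciita 1.66%. Within plasma cells H2-Oa and Ciita did not pass the filter on low counts (26 and 9 UMIs over the 8 control libraries). They entered the comparisons of populations through naive and GC B cell libraries, so the depth of their falls in plasma cells is uncertain, here and below. H2-Aa retained 6.48%, H2-DMb1 6.61%, H2-Ob 10.1%, H2-Eb1 10.3% and H2-DMa 12.8%. H2-Ab1, the beta chain of I-A, retained 18.2% and Cd74 50.1%.

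Ciita was counted at 9 UMIs over the 8 control and 11 over the 8 transgenic plasma cell libraries, about 1 UMI per library, so differences between these libraries could not be resolved. The other B cell genes that plasma cells are known to lower fell too, 6 of 6 in both genotypes. They were listed for being low in plasma cells, so this count could be foreseen. Only Ms4a1 of the 6 passed the filter on low counts within plasma cells, so the lowest shares are uncertain. In control plasma cells the share of the naive CPM that these genes retained ran from 0.944% (Pax5) and 1.33% (Fcer2a) to 5.49% (Bank1) and 10.7% (Ms4a1, the B cell surface protein CD20). Cd74, H2-Ab1 and H2-DMa lay above that range and the other 7 members within it. Markers of other cells that express class II were also summed in control plasma cell libraries. Those of naive B cells reached 263 to 469 CPM (mean 366), against a mean of 5329 CPM in control naive B cells. Dendritic cell markers summed to 3.24 to 13.99 CPM, with Siglech and Cd209a at 0, and monocyte and macrophage markers to 22.2 to 84.5 CPM, with C1qc and Vcam1 at 0. Their part in the remaining class II signal was not tested.

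Cd74 (chromosome 18, 60803848 to 60812652, GRCm38) was the exception between GC B cells and plasma cells. In control mice its CPM was 5602, 6412 and 7071 (lowest, median and highest mouse) in GC B cells and 5372, 6197 and 7523 in plasma cells. These ranges overlap almost entirely, and the log2 fold change was -0.02 (SE 0.06, adjusted p = 0.771). The other 9 genes were lower in plasma cells, by 1.47 (H2-Ab1) to 4.82 (Ciita, at 9 UMIs in all there) on the log2 scale (65.8% of 6503 genes called, 35.4% lower; member median -2.37, all genes -0.0934). This holds on the TMM scale, on which immunoglobulin transcripts, 50.3% of the UMIs of control plasma cells, weigh little. Per library as counted, Cd74 fell from 4035 ± 355 UMIs in GC B cells to 1924 ± 324 in plasma cells, and all 10 genes were lower in every mouse. In transgenic mice all 10 were called lower in plasma than in GC B cells (68.8% of 7016 genes called, 37.6% lower; member median -2.17, all genes -0.108). Cd74 was the smallest of these falls (log2 -0.20, SE 0.06, adjusted p = 0.00509). It was not called without mouse 8 (adjusted p = 0.126) or with libraries thinned to the smallest total (adjusted p = 0.074).

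The remaining comparisons of populations in transgenic mice went the same way. All 10 genes were lower in GC than in naive B cells (54% of 7016 genes called, 26.5% lower; member median -1.33, all genes -0.0126) and all 10 were lower in plasma than in naive B cells (54.9% called, 26.9% lower; member median -3.63, all genes 0.00364). H2-Oa again had the largest fall of the 10, with log2 fold changes of -2.25 (SE 0.09, adjusted p = 1.58e-40) and -6.25 (SE 0.16, adjusted p = 1.2e-58). The latter rests on 29 UMIs over the transgenic plasma cell libraries. Cd74 retained 36.04% of its naive CPM in transgenic plasma cells.

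The second question was what the c-Rel transgene did within each population. In GC B cells 8 of the 10 genes were lower in transgenic than in control mice and none was higher (7.68% of 6393 genes called, 4.1% lower). The median of the 10 was -0.28 on the log2 scale, against -0.0023 over all genes tested. The falls were moderate, from 0.20 to 0.46 among the genes called. With mice 1 to 8 only 2 were called, with mice 9 to 16 only 5, and in a fit of all 48 libraries 5. The 8 genes were the transactivator, the chains of I-A and I-E, the invariant chain, the H2-DM genes H2-DMa and H2-DMb2, and H2-Oa.

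Ciita stood at 96.5, 114 and 133 CPM in control GC B cells and at 50.03, 87.3 and 106 CPM in transgenic ones. The transgenic levels lay below the lowest control in 7 of 8 mice. The log2 fold change was -0.46 (SE 0.11, adjusted p = 0.0072).

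H2-Aa stood at 2621, 2888 and 3069 CPM in control and at 2194, 2354 and 2658 CPM in transgenic GC B cells. Again 7 of 8 transgenic mice were below every control. The fall was 0.29 on the log2 scale (SE 0.05, adjusted p = 3.27e-05), and H2-Eb1 (fell by 0.28, SE 0.05, adjusted p = 0.000355) and H2-Ab1 (fell by 0.21, SE 0.05, adjusted p = 0.0014) were close to it.

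Cd74 stood at 5602, 6412 and 7071 CPM in control and at 3915, 4682 and 5632 CPM in transgenic GC B cells. All transgenic mice but the highest were below the lowest control. The fall of 0.46 (SE 0.06, adjusted p = 8.79e-06) exceeded that of each chain.

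Among the genes of peptide editing, H2-DMb2 fell by 0.28 (SE 0.06, adjusted p = 0.00119), H2-Oa by 0.30 (SE 0.09, adjusted p = 0.0222) and H2-DMa by 0.20 (SE 0.06, adjusted p = 0.0287). H2-DMb1 had a log2 fold change of -0.11 (SE 0.08, adjusted p = 0.422) and H2-Ob of -0.26 (SE 0.10, adjusted p = 0.123), and neither was called. For H2-DMa 4 and for H2-DMb1 1 of the 8 transgenic mice lay below the lowest control. The call of H2-DMa was lost in 8 of 16 fits that left out 1 mouse (without mouse 1, 2, 5, 9, 10, 13, 14 or 15; adjusted p up to 0.0867), and that of H2-Oa without mouse 10, 11 or 16 (up to 0.104). H2-DMa was also lost with no filter on low counts (adjusted p = 0.112) and H2-Oa with libraries thinned to the smallest total (0.0627). In the fit of all 48 libraries H2-Ab1 (adjusted p = 0.0548), H2-Oa (0.0507) and H2-DMa (0.0957) were lost. H2-Ob was called without mouse 8 (adjusted p = 0.00542), without mouse 12 (0.0445) or with no filter (0.0346). The 2 copies of the H2-DM beta chain share much of their sequence, and reads that match both could have been assigned to either. The last 300 bases of their transcripts, where the tags lie, were 64.6% identical.

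Library totals also differed on average. Transgenic GC B cell libraries held 560382 ± 75238 UMIs against 453596 ± 60965 in controls. As counted, H2-Aa gave 1835 ± 212 UMIs in transgenic and 1830 ± 170 in control libraries, and H2-Ab1 3424 ± 342 and 3234 ± 294. Only Cd74 (3603 ± 435 against 4035 ± 355) and Ciita (64.1 ± 13.2 against 71.6 ± 8.1) had lower means as counted, with overlapping ranges. The fall of the chains was thus one relative to the other transcripts of the same libraries. Markers of naive B cells summed to 460 to 762 CPM in control and 235 to 653 CPM in transgenic GC B cells, ranges that overlap. Of the 7 markers 3 were tested, and Fcmr alone was called lower (log2 -0.63, adjusted p = 0.0361). The 6 B cell genes that plasma cells lower summed to 1415 to 2112 and 1150 to 1949 CPM, and 3 of them were called lower (median of the list -0.43). Dendritic cell markers summed to 22.4 to 46.9 CPM in control and 22.5 to 66.5 CPM in transgenic GC B cells, nearly all from Flt3 (37.1 ± 8.6 and 47.7 ± 12.9 CPM), with Siglech, Cd209a and Batf3 at 0. Monocyte and macrophage markers stayed at or under 16.75 CPM and T cell markers at or under 5.10 CPM in every GC library. The part of these cells in the class II difference was not tested.

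**Figure D3:**
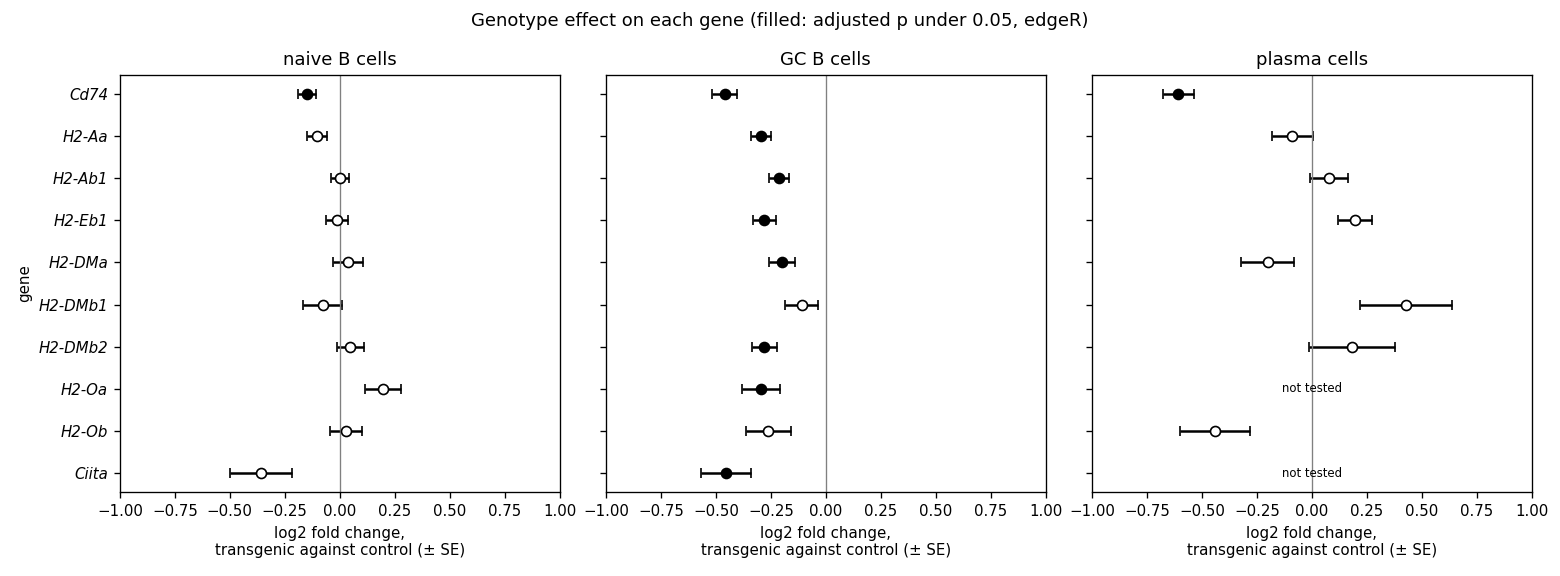
Log2 fold change of transgenic against control mice (horizontal axis, ± SE, 8 against 8 mice) for each gene in the 3 populations; filled points have an adjusted p under 0.05 in edgeR. In GC B cells every point lies left of 0 and 8 are filled, whereas in naive B cells and plasma cells only Cd74 is filled, at -0.15 and -0.61.

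In naive B cells only Cd74 was called (1 of 10 genes; 1.13% of 2131 genes called, 0.516% lower; member median -0.0055, all genes 0.00012). Its CPM was 10773, 12433 and 13577 in control and 10721, 11488 and 12055 in transgenic mice, ranges that overlap in 6 of 8 mice. The fall of 0.15 (SE 0.04, adjusted p = 0.0226) was not called in 9 of 16 fits that left out 1 mouse (adjusted p up to 0.0973) nor with DESeq2 (adjusted p = 0.25). Ciita had a log2 fold change of -0.36 (SE 0.14, adjusted p = 0.276) and H2-Oa of 0.20 (SE 0.08, adjusted p = 0.305). The other 7 lay between -0.10 and 0.05. The shallow naive libraries gave Ciita 32.8 ± 6.9 UMIs in control and 28.6 ± 6.9 in transgenic mice, which limits what could be detected.

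In plasma cells Cd74 was again the only gene called, of 8 that passed the filter on low counts (6.35% of 4538 genes called, 4.03% lower; tested members' median -0.0064, all genes 0.0022). Its CPM was 5372, 6197 and 7523 in control and 3620, 4083 and 4746 in transgenic mice. No transgenic mouse reached the lowest control. The fall was 0.61 on the log2 scale (SE 0.07, adjusted p = 8.16e-09). As counted the mean was lower too, at 1477 ± 305 UMIs per library against 1924 ± 324. The ranges as counted overlapped, with 3 of 8 transgenic mice below the lowest control.

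The chains did not follow Cd74 in plasma cells. H2-Aa had a log2 fold change of -0.09 (SE 0.09, adjusted p = 0.679), H2-Ab1 of 0.08 (SE 0.09, adjusted p = 0.699) and H2-Eb1 of 0.20 (SE 0.08, adjusted p = 0.127), with 5 of 8 transgenic mice above the highest control for H2-Eb1. Among the editors H2-DMb1 was at 0.43 (SE 0.21, adjusted p = 0.254), H2-DMb2 at 0.18, H2-DMa at -0.20 and H2-Ob at -0.44 (SE 0.16, adjusted p = 0.0856). H2-Ob was called only without mouse 2 (adjusted p = 0.0345).

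H2-Oa and Ciita were too low in plasma cells for the model and were compared by a two-sided exact permutation test over 12870 splits, on CPM with library totals as counted. H2-Oa averaged 5.29 ± 3.18 CPM in control and 5.63 ± 2.81 in transgenic mice (exact permutation p = 0.822, adjusted over both tests 0.822). Ciita averaged 1.96 ± 1.94 and 2.22 ± 1.30 CPM (exact permutation p = 0.76, adjusted 0.822). At 1 to 4 UMIs per library on average, a difference in either gene was not detectable at this depth.

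Marker genes of plasma cells and of other cells are given beside this difference. The 7 plasma cell markers summed to 104268 to 158406 CPM in control and 66751 to 116880 CPM in transgenic plasma cells, overlapping ranges with means of 125139 and 92890. Of these 7, Jchain, the joining chain of secreted IgM and IgA (log2 -0.57, adjusted p = 0.00486), and Sdc1, the surface protein CD138 (-0.28, adjusted p = 0.0123), were called lower and none higher. Naive B cell markers summed to 263 to 469 and 167 to 284 CPM, and Fcmr was lower (log2 -1.48, adjusted p = 3.71e-08). GC markers summed to 90.6 to 137 and 96.8 to 268 CPM, and Mki67, a proliferation gene, was called higher among 2 tested. No marker of T cells, dendritic cells or monocytes and macrophages passed the filter on low counts, and their sums overlapped between genotypes. T cell markers summed to 68.8 to 126 and 24.6 to 96.8 CPM, dendritic cell markers to 3.24 to 13.99 and 5.47 to 24.2 CPM, and monocyte and macrophage markers to 22.2 to 84.5 and 28.5 to 98.5 CPM. The part of any of these in the difference of Cd74 was not tested.

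Whether the genotype effect differed between populations was tested as a contrast over all 48 libraries. The effect on Cd74 was more negative in plasma cells than in naive B cells (difference -0.47, SE 0.09, adjusted p = 0.000518; 1.16% of 7744 genes called, 1.01% lower), and no other member was called there (member median 0.03, all genes -0.02). H2-Eb1 was the single member whose effect differed between plasma and GC B cells (difference 0.47, SE 0.10, adjusted p = 0.000739; 1.58% called, 0.529% higher; member median 0.26, all genes -0.01). It had fallen in GC B cells and stood at 0.20 in plasma cells. The call was lost when all libraries were thinned to the smallest total (adjusted p = 0.0987). Between GC and naive B cells no member passed with edgeR (0 of 10; 0.129% of genes called). An unadjusted p under 0.05 was reached by 8 of 10 members and by 648 of all 7744 genes tested. The member median was -0.26, against -0.01 over all genes. DESeq2 called 2 there, Cd74 (difference -0.33, adjusted p = 0.0261) and H2-Oa (-0.52, adjusted p = 0.0332). The falls in GC B cells were therefore not shown to differ from the values in naive B cells by edgeR.

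Ratios within a library do not depend on how libraries are scaled, and they showed how the balance of the pathway differed. UMIs of Cd74 per UMI of the 3 chains (H2-Aa, H2-Ab1 and H2-Eb1) came to 0.555 ± 0.038 in control naive B cells, 0.623 ± 0.026 in GC B cells and 2.23 ± 0.25 in plasma cells. In transgenic mice the ratios were 0.514 ± 0.024, 0.539 ± 0.033 and 1.41 ± 0.21. The genotypes did not overlap in GC B cells (0.587 to 0.666 in control, 0.474 to 0.5679 in transgenic mice) or in plasma cells (1.88 to 2.47 and 1.13 to 1.80), and they overlapped in naive B cells. Cd74 made up 66.4% ± 2.4 of the members' UMIs in control and 55.6% ± 3.5 in transgenic plasma cells.

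The chains did not keep a fixed proportion either. H2-Ab1 per H2-Aa, the beta to alpha chain of I-A, was 1.31 ± 0.12 in control naive B cells, 1.77 ± 0.05 in GC B cells and 3.68 ± 0.46 in plasma cells, with 1.40 ± 0.05, 1.87 ± 0.09 and 4.15 ± 0.44 in transgenic mice. The 3 populations did not overlap in either genotype, while the genotypes overlapped in each population. H2-Eb1 per H2-Aa was 0.597 ± 0.033, 0.773 ± 0.036 and 0.962 ± 0.121 in control mice.

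Of the inhibitor H2-DO, the alpha chain gene was lost more completely. H2-Oa per H2-Ob was 0.747 ± 0.097 in naive, 0.579 ± 0.107 in GC and 0.116 ± 0.059 in plasma cells of control mice, and 0.838 ± 0.100, 0.575 ± 0.123 and 0.154 ± 0.075 in transgenic mice. The plasma cells did not overlap with the other populations. UMIs of both H2-DO genes per UMI of the H2-DM genes (H2-DMa, H2-DMb1 and H2-DMb2) came to 0.438 ± 0.034 in naive and 0.336 ± 0.019 in GC B cells of control mice. In transgenic mice they were 0.463 ± 0.047 and 0.325 ± 0.034. In plasma cells this ratio spread from 0.279 to 0.787 over the control mice and averaged 0.322 ± 0.060 in transgenic mice. There it was mostly H2-Ob (mean 28.25 UMIs per control library, against 3.25 of H2-Oa), so it does not measure complete H2-DO. H2-DMb2 per H2-DMb1 was 3.31 ± 0.55 in naive, 3.09 ± 0.23 in GC and 1.62 ± 0.73 in plasma cells of control mice.

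**Figure D4:**
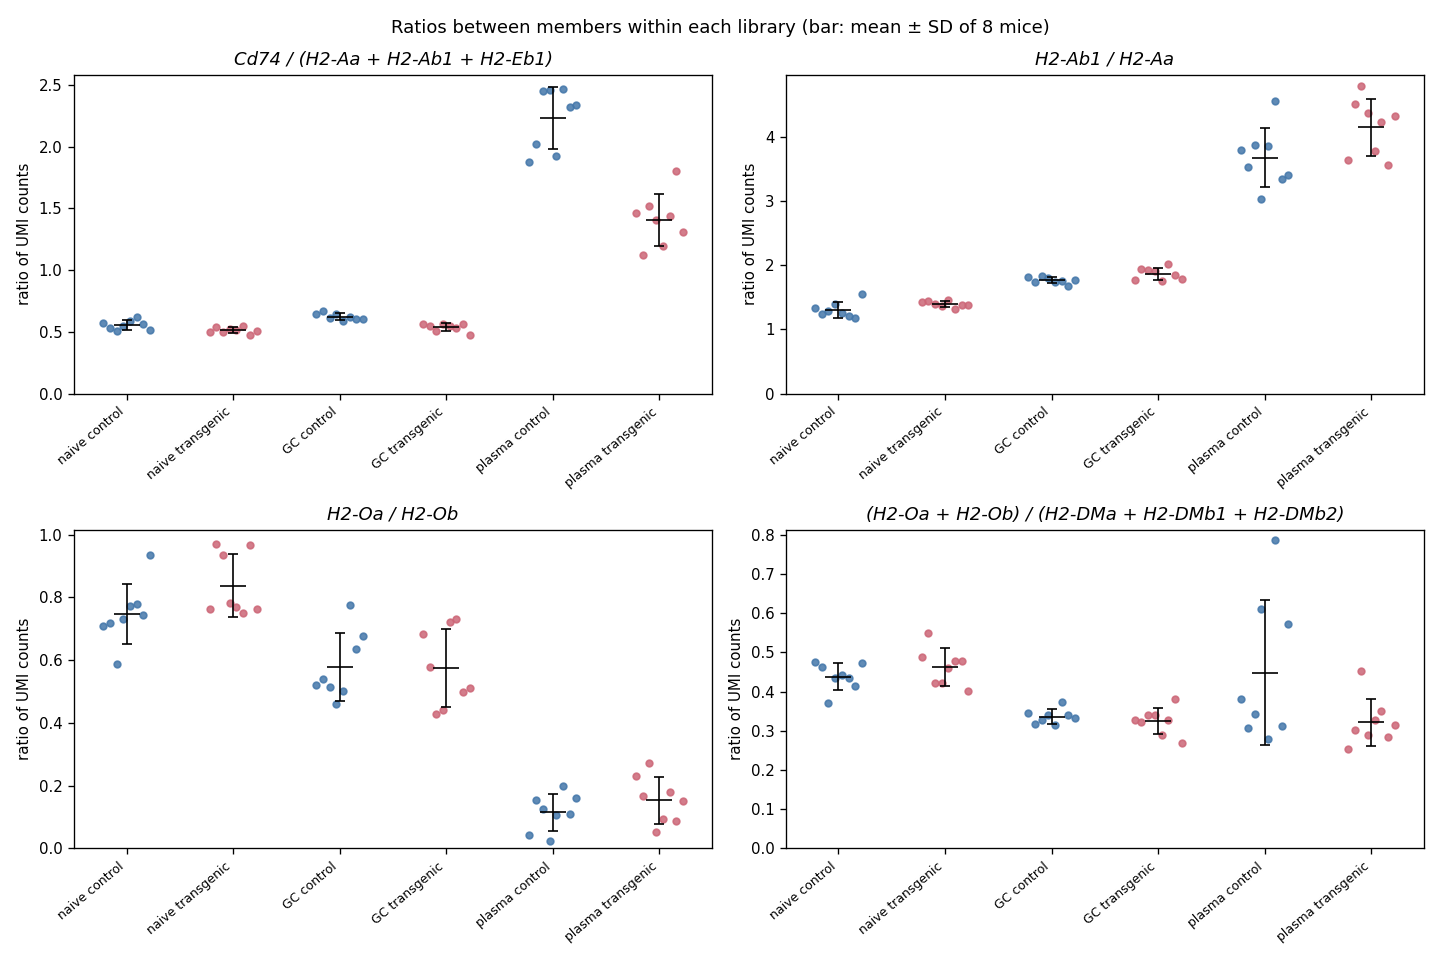
Ratios of UMI counts between members within each library (vertical axes, from 0), by population and genotype; points are mice and bars the mean ± SD of 8. In plasma cells Cd74 per chain is 2.23 in control and 1.41 in transgenic mice without overlap, H2-Ab1 per H2-Aa steps up over the populations, and H2-Oa per H2-Ob is lowest in plasma cells.

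Companion genes of the pathway were taken from 4 lists. Of 7 factors that bind class II promoters (the RFX and NF-Y subunits and Creb1), 5 were tested in GC B cells and 2 in plasma cells, none passed in naive B cells, and no genotype difference was called. Of 6 tested between populations in control mice, 1 was higher in GC than in naive B cells (Nfyc, an NF-Y subunit, log2 0.45, adjusted p = 0.0333) and 1 lower in plasma than in naive B cells (Rfx5, log2 -1.29, adjusted p = 0.00998). Rfx5 did not pass the filter on low counts within plasma cells.

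Among regulators of Ciita, Irf1, an interferon-induced factor, was higher in transgenic naive B cells (log2 0.59, adjusted p = 0.00253) and GC B cells (0.97, adjusted p = 0.0133). Spi1 (PU.1), which binds the Ciita promoter, was lower in transgenic GC B cells (-0.56, adjusted p = 0.0284). In control plasma cells against GC B cells, Prdm1 (Blimp-1, the plasma cell repressor of Ciita) was higher (log2 5.22, adjusted p = 7.48e-38) and Irf8 and Pax5 were lower (-2.94 and -5.13). These were picked after their values were seen, and further regulators of the list were called there in both directions. Pax5 did not pass the filter on low counts within plasma cells, so the depth of its fall is uncertain.

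Of 8 proteases and related enzymes of the endosome, Ctss, the cathepsin that cleaves the invariant chain, was the one called in plasma cells (1 of 7 tested; list median -0.09). It averaged 1978 ± 399 CPM in control and 959 ± 112 CPM in transgenic plasma cells (1413, 1919 and 2449 against 784, 972 and 1144 CPM). The groups did not overlap. It fell by 1.06 on the log2 scale (SE 0.11, adjusted p = 1.01e-05), and the effect differed from that in GC B cells (difference -0.96, adjusted p = 1.37e-11) and in naive B cells (-1.12, adjusted p = 3.52e-15). Ctsz was lower in transgenic GC B cells (-0.21, adjusted p = 0.0207), 1 of 7 tested (list median -0.11), and none of 7 was called in naive B cells (list median 0.07).

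While the members fell in control plasma cells, 5 of 7 tested endosomal genes rose against naive B cells and 2 fell (list median 0.72, all genes 0.0083). Ctsb rose by 2.84 and Ctsd by 2.09 (log2), whereas Ifi30, the thiol reductase of antigen processing, fell by 1.74 and Ctsh by 1.49. Of the 8 genes of class II turnover and costimulation, 5 were tested between populations and all 5 fell in control plasma cells against naive B cells (list median -3.20), among them March1, the ligase that removes surface class II (-3.36), and Cd83 (-2.88), which protects it. Within plasma cells only Cd83 of this list passed the filter on low counts. The others entered the comparison through naive or GC B cell libraries, so their falls could be foreseen and are no independent result. No gene of this list was called between genotypes in naive B cells (3 tested), GC B cells (5 tested) or plasma cells (1 tested).

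By the root mean square difference of centred log2 CPM over the 6 group means, the genes most like H2-Aa outside the pathway were Il4i1 (0.0861), Zfp608 (0.166), Tlr1 (0.174), Nuak2 (0.193) and Gm8369 (0.230). For Ciita they were Bcl11a (0.130), Sorl1 (0.151), Cd22 (0.168), Cxcr5 (0.280) and ENSMUSG00000099065 (0.281). Within the pathway, H2-DMb1 (0.204) and H2-Ob (0.222) were closest to H2-Aa and Cd74 was farthest (1.21), while H2-DMb2 (0.301) was closest to Ciita.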

How the data were processed

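Libraries were bulk SCRB-seq, per the labels' protocols. Per the submitters' processing notes the aligner was STAR and the build GRCm38.p5. The authors deposited 1 table of raw UMI counts per gene (48 libraries, 1 per mouse and population). How UMIs were collapsed, and on which annotation, is not given in the sources used here. GENCODE M21 named 19701 of 20007 genes; the 306 others held 0.424% of the UMIs. The members and the companion and marker lists were chosen with earlier results of these data known. A gene of the list of Ciita regulators and one of the naive B cell markers are not reported here, so counts that need them are left out.

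The test was that of edgeR 4.0.16 (R 4.3.3) on the counts as deposited (TMM, filterByExpr, robust quasi-likelihood fit, Benjamini-Hochberg threshold 0.05 over all genes tested). Genotypes were compared within a population (16 libraries), populations within a genotype (24), and differences of genotype effects over all 48. Each library is a separate mouse within its group. The scripts were tested on simulated data with known changes. All 10 members are named, as are called companions with the smallest adjusted p, and the 5 most alike genes (prior 2 CPM, at least 10 CPM in a group). Companions named between populations were chosen after their values were seen.

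The 3 libraries of a mouse come from 1 animal, so its number pairs them. Deviations from the group means correlated on average by 0.0066 to 0.043 between libraries of a mouse. Alternatives were RLE scaling, no filter, DESeq2 1.42.0, immunoglobulin genes left out, thinning, mice 1 to 8 or 9 to 16 only, a covariate of Y-linked expression, a fit of all 48 libraries, the mouse as a block, and leaving out each mouse or, in plasma cells, mice 9 and 10.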

Additional observations from a re-analysis of the deposited data

Results flagged for a closer look

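The effect of the transgene on Cd74 differed between plasma cells and naive B cells by -0.47 on the log2 scale, and that on H2-Eb1 between plasma cells and GC B cells by 0.47, each by a test of the difference itself.

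In 4 of 102 sets of 8 libraries (60 of CPM, 42 of ratios) 1 mouse lay apart from the other 7 by more of the whole range than Dixon's critical value allows; chance gives about 1 in 20. Mouse 8 had the highest H2-DMb2 in transgenic GC B cells (763 CPM), mouse 10 the highest H2-Oa in control GC B cells (277 CPM) and mouse 2 the highest H2-Ob in control naive B cells (1072 CPM). Mouse 6 had the lowest ratio of H2-DMb1 and H2-DMb2 to H2-DMa in transgenic naive B cells (1.76).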

How the results depend on the processing

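All 10 members stayed called in GC and in plasma cells against naive B cells in both genotypes under every setting run, and 9 to 10 in plasma against GC B cells. Cd74 stayed called in GC B cells and plasma cells between genotypes. The member called in naive B cells was lost (0) with no filter, DESeq2, immunoglobulin genes left out, mice 1 to 8 only, mice 9 to 16 only and the fit of all 48 libraries (0 to 1 when leaving out each mouse). In GC B cells 2 members were called with mice 1 to 8 only, 5 with mice 9 to 16 only and 5 in the fit of all 48, and 6 to 9 when leaving out each mouse. The plasma cell count ranged from 1 to 2 over left-out mice (2 without mouse 2). The count for the difference of GC and naive effects was 2 with DESeq2 (0 to 2 over left-out mice; 2 without mouse 8, 1 without mouse 12), and for plasma and GC effects 2 with DESeq2 and 0 when thinned (1 to 2 over left-out mice, 2 without mouse 8 or 9). Calls were lost in fits of 8 mice, and some also in fits that left out 1 mouse or took all 48 libraries. Why they were lost was not tested.

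Signs turned only for values near 0 or of few UMIs, none called. Naive genotype effects became -0.025 (mice 1 to 8) and -0.023 (Y-linked covariate) for H2-Ab1, 0.0015 (no filter), 0.055 (mice 9 to 16) and 0.012 (all 48) for H2-Eb1, -0.068 (mice 9 to 16) for H2-DMa and -0.0062 (covariate) for H2-DMb2. With left-out mice they ran from -0.011 to 0.018 (H2-Ab1), -0.034 to 0.015 (H2-Eb1) and -0.010 to 0.066 (H2-Ob). Cd74 in control plasma against GC B cells became 0.027 when thinned (-0.088 to 0.023 over left-out mice). Plasma minus naive effects became 0.047 (H2-DMa) and 0.61 (H2-Oa) when thinned, and over left-out mice ran from -0.11 to 0.059 (H2-Aa), -0.010 to 0.12 (H2-Ab1) and -0.44 to 0.031 (H2-Oa). The GC minus naive effect of Ciita ran from -0.19 to 0.011. The plasma minus GC effect of H2-DMa became 0.010 (RLE), 0.0063 (no filter), 0.0091 (DESeq2), 0.0072 (immunoglobulin genes left out) and 0.35 (thinned), and ran from -0.060 to 0.068. In mice 9 to 16 only, the exact comparisons in plasma cells gave -2.13 CPM for H2-Oa and -0.187 CPM for Ciita. With the mouse as a block no call changed; Cd74 in plasma minus naive effects was -0.47, and H2-Aa in the same contrast (-0.0047) and H2-DMa in plasma minus GC effects (0.0023) turned sign. Without the filter the median of all genes moved by up to 0.185, to 0.172 in transgenic GC against naive B cells.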

Other observations

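Icosl, the ligand of a T cell costimulator, averaged 8.32 ± 3.21 CPM in control and 1.30 ± 1.92 CPM in transgenic plasma cells, from 21 and 4 UMIs, and was not tested there between genotypes. The effect of the transgene on Cd40, the receptor for T cell help, was more negative in plasma cells than in GC B cells (difference in log2 of -1.25, SE 0.35, adjusted p = 0.0315 with edgeR), and the single called gene of the 5 tested in its list. Cd40 was likewise not tested between genotypes within plasma cells, where it did not pass the filter on low counts. It entered the contrast through naive and GC B cell libraries, so no effect of the transgene on Cd40 in plasma cells is established. These genes were chosen after their values were seen.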
